A study of Mus musculus with 2 samples.

Results

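The SLC25 family of mitochondrial carriers was described in leukaemia cells from mice with acute myeloid leukaemia, comparing 1 library labelled wild type (WT) with 1 library labelled P2X1 knockout (P2X1-KO). Members were all entries of the count table whose symbol is Slc25a followed by a number, which gave 47 of 46095 entries. The choice used no measured value. Carriers listed under other symbols, such as Ucp2, Mtch1 and Mtch2, are not members and are given separately.

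Both libraries came from C57BL/6 mice labelled as 8 weeks old, and the cells were sorted from bone marrow for the surface proteins Mac1 (encoded by Itgam) and KIT. The labels call them leukaemia-initiating cells. By label they differ in P2x1, encoded by P2rx1, a cell-surface ion channel opened by ATP. Titles and genotype fields name a knockout, whereas the protocol text also writes P2X1-Scr and P2X1-KD for these groups. What started the leukaemia, and whether a library holds 1 animal or a pool, is not stated by the labels. With 1 library per group no difference has a replicate check, and no p-value was computed.

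The library labelled WT, called WT-labelled from here on, held 14658620 counts, and the library labelled P2X1-KO, called KO-labelled, held 9447894. Levels are given in CPM, in which counts are scaled to the same library size after edgeR's TMM adjustment. P2rx1 had 27 counts (1.73 CPM) in the WT-labelled library and 45 counts (5.07 CPM) in the KO-labelled library, a ratio of 2.93 (1.78 to 4.90). P2rx1 therefore does not follow the knockout label, and all directions reported are between the libraries as labelled. The sort markers were detected in both: Kit at 13.3 and 19.9 CPM and Itgam at 307 and 504 CPM in the WT-labelled and KO-labelled library. The summed level of 10 macrophage and monocyte markers was 436 CPM in the WT-labelled library and 5230 CPM in the other. Most of the latter sum came from 1 gene, Lyz2, at 170 CPM in the WT-labelled library and 4207 CPM in the KO-labelled library. Of the 9 markers that averaged 5 CPM, 8 were higher by 2-fold or more in the KO-labelled library. Vcam1 was lower, at 81.9 and 25.4 CPM, and Mrc1 was at 0 in the KO-labelled library. For 10 neutrophil markers the sums were 3218 and 12758 CPM (8 of 9 higher by 2-fold or more, Ly6g lower at 6.99 and 4.05 CPM). They were for 12 eosinophil and mast cell markers 55.6 and 321 CPM (Fcer1a, Il5ra and Ear1 at 0 in both). Of the 6 that averaged 5 CPM, 5 were higher by 2-fold or more, with Prg2 at 0.513 and 129 CPM. Mcpt8 was lower at 34.0 and 23.0 CPM, and Ear6 had 19 and 0 counts. For 10 lymphocyte markers the sums were 32.0 and 63.2 CPM (4 at 0 in both). Of the 2 that averaged 5 CPM, Cd79b was at 14.7 and 47.4 CPM and Nkg7 at 15.3 and 12.7 CPM. The sums for 10 stromal markers were 108 and 297 CPM, with members on both sides: Pdgfrb was at 93.1 and 47.1 CPM and Cxcl12 had 14 and 0 counts, while Col1a1 had 15 and 1327, Col3a1 0 and 264, and Col1a2 0 and 213. The part of these marker differences in the carrier differences was not tested. In bulk samples, fewer cells of a type and less RNA per cell cannot be told apart.

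SLC25 proteins are carriers of the inner mitochondrial membrane, with a few in other membranes. A typical carrier is built of repeated pairs of membrane helices and moves a metabolite, nucleotide, cofactor or ion across a membrane that is otherwise closed to it, often in exchange for another solute. The family joins the matrix to the cytosol: it exports ATP, passes reducing equivalents by the aspartate and malate shuttle, and supplies iron, glycine and cofactors. In blood-forming cells it is best known for the iron carrier mitoferrin-1 and the glycine carrier Slc25a38, both needed for haem synthesis.

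Of the 47 carriers, 44 had at least 1 count in the WT-labelled library and 39 in the KO-labelled library, and 3 had 0 counts in both. Of all 46095 entries, 19824 had a count in the WT-labelled library and 16165 in the KO-labelled library, which held fewer counts. The mean of both libraries was 5 CPM or more for 27 carriers. Together the 47 took 38476 counts in the WT-labelled library, which is 0.262% of all counts (exact 95% interval 0.260 to 0.265). They took 19409 counts in the KO-labelled library, which is 0.205% (0.203 to 0.208). On the TMM scale the sum of the 47 was 2468 and 2185 CPM, 1.13-fold lower in the KO-labelled library (1.11 to 1.15). Without Slc25a5 it was 1.06-fold lower (1.04 to 1.08). The 5 carriers under other symbols, which the choice by symbol leaves out, summed to 1224 and 1741 CPM, higher in the KO-labelled library. Shares of the family's counts given below are shares of the 47. All intervals here are at 95% and cover counting error alone, without variation between animals or libraries. They may be too narrow even for that, because PCR copies are not independent molecules.

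Carriers differed in both directions, and their shares beyond 2-fold were near those of all genes. Of the 27 carriers averaging 5 CPM or more, 2 were higher by 2-fold or more in the KO-labelled library, Slc25a45 and Slc25a10, against 12.1% of the 10483 genes at that level. Another 3 were lower by 2-fold or more, Slc25a22, Slc25a13 and Slc25a42, against 10.6% of genes. As shares of the 27, these are 7.41% and 11.1%. With total counts as the scale, which moves every gene down by 0.18 (log2) in the KO-labelled library relative to TMM, 1 was higher by 2-fold or more and 5 lower by 2-fold or more, against 9.67% and 15.3% of genes.

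Smaller differences leaned towards lower values in the KO-labelled library. Of the 27 carriers, 17 had a ratio below 1 (63.0%), and so had 54.2% of all genes at that level. The median log2 difference, P2X1-KO minus WT with a pseudocount of 0.5 CPM, was -0.41 for the carriers and -0.08 for all genes. The whole counting interval lay below 1 for 15 of the 27 carriers, or 55.6%, and for 43.7% of all genes. It lay above 1 for 8 carriers, or 29.6%, and for 35.9% of all genes. The remaining 4 carriers, among them Slc25a17, Slc25a26 and Slc25a30, had intervals that include 1. The middle 50% of carriers spanned log2 differences from -0.67 to 0.32, and that of all genes from -0.56 to 0.47, as the cumulative plot shows.

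**Figure D1:**
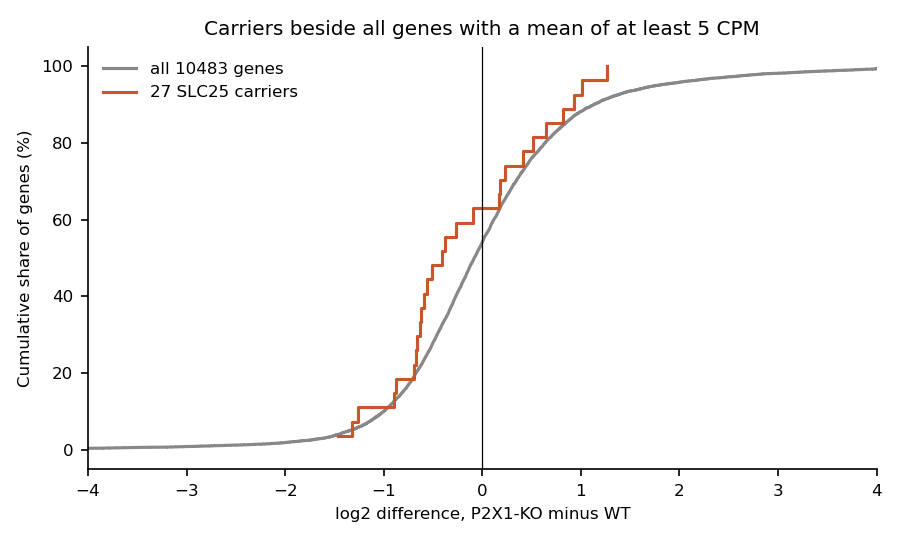
Cumulative share of genes (y axis, %) by log2 difference, P2X1-KO minus WT (x axis), for the 27 carriers and for all 10483 genes averaging 5 CPM or more, 1 library per group. The carrier line lies to the left of the line of all genes around the middle (medians -0.41 and -0.08), while both ends of the carrier line stay within the range of all genes.

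Levels between genes were compared as CPM per kilobase of annotated exon. Slc25a5, an ADP/ATP carrier, stood first of the 47 in both libraries, at 457 in the WT-labelled library and 343 in the other. Slc25a3, the phosphate carrier, came second in both, at 61.9 and 72.7. In the WT-labelled library the next were Slc25a37 (44.7), Slc25a39 (39.8) and Slc25a4 (34.8). In the KO-labelled library they were Slc25a39 (62.3), Slc25a45 (38.3) and Slc25a38 (28.2), and Slc25a37 stood sixth at 27.6. Slc25a45 thus moved from place 8 to place 4 and Slc25a10 from place 15 to place 8, whereas Slc25a22 moved from place 13 to place 18. Exon lengths are those of all annotated transcripts joined, so a gene read mainly from a short transcript is placed too low. The margin of Slc25a5 over Slc25a3 depends on this, as their joined lengths are 1646 and 5550 bases. In counts alone, Slc25a5 over Slc25a3 was 2.19 in the WT-labelled library and 1.40 in the KO-labelled library.

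**Figure D2:**
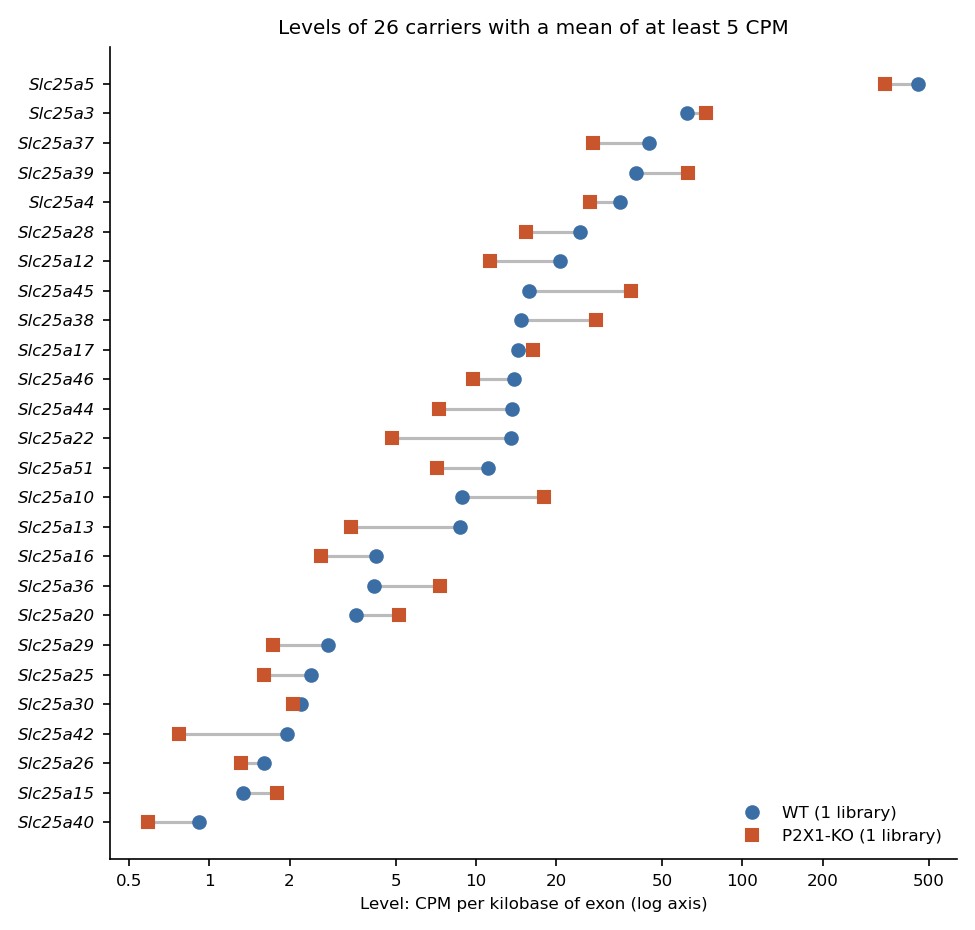
Level of 26 of the 27 carriers averaging 5 CPM or more, in CPM per kilobase of exon (log x axis), in the WT library (circles) and the P2X1-KO library (squares), ordered by the WT level. Slc25a5 stands apart at the top in both libraries, and Slc25a22, Slc25a13 and Slc25a42 show the widest gaps towards lower values in P2X1-KO.

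The carriers of ADP, ATP and phosphate, which feed and empty ATP synthase, held the largest share of the counts of the 47. Slc25a5 (ANT2, chromosome X, 36795651 to 36798807, plus strand, mm10) had 11736 counts in the WT-labelled library and 5019 in the KO-labelled library, or 753 and 565 CPM. It was 1.33-fold lower in the KO-labelled library (1.29 to 1.38), and its share of the family's counts was 30.5% in the WT-labelled library (30.0 to 31.0) and 25.9% in the other (25.2 to 26.5). Slc25a5 has processed copies in the mouse genome, so its count is uncertain, although the copy that the table lists as Slc25a5-ps had 0 counts in both libraries. Slc25a4 (ANT1), the form best known from heart and muscle, was at 82.0 and 62.8 CPM, 1.30-fold lower. Slc25a3 was the 1 member of this class at 5 CPM that stood higher in the KO-labelled library. It had 5353 and 3582 counts, or 343 and 403 CPM, a ratio of 1.17 (1.13 to 1.23), and its share of the family's counts was 13.9% and 18.5%. Slc25a31, the ADP/ATP carrier of testis, had 0 counts in both.

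The calcium-regulated carriers of ATP-Mg and phosphate were low, with values on both sides. Slc25a25 was at 18.9 CPM in the WT-labelled library and 12.6 CPM in the other, 1.495-fold lower (1.199 to 1.88). Slc25a23 had 28 and 49 counts, or 1.80 and 5.52 CPM, and was 3.07-fold higher in the KO-labelled library (1.89 to 5.08). Slc25a24 had 39 and 15 counts with a ratio of 0.68 (0.35 to 1.25), and Slc25a41 had 2 and 0 counts. Slc25a23 overlaps Crb3 on the opposite strand and Slc25a25 overlaps Naif1, so reads of these pairs may not be separable.

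The aspartate and glutamate carriers were lower in the KO-labelled library. Slc25a12 (aralar, chromosome 2, 71271063 to 71367749, minus strand) exchanges matrix aspartate for cytosolic glutamate and a proton. It had 2374 counts (152 CPM) in the WT-labelled library and 735 counts (82.7 CPM) in the other, 1.84-fold lower (1.69 to 2.002). Slc25a13 (citrin, chromosome 6, 6041218 to 6217173, minus strand) carries the same solutes and is best known from liver. It had 517 counts (33.2 CPM) and 115 counts (12.9 CPM), 2.56-fold lower (2.09 to 3.16). Slc25a22 (chromosome 7, 141429744 to 141437892, minus strand) is a glutamate carrier that moves glutamate into the matrix with a proton. It had 1264 counts (81.1 CPM) and 258 counts (29.0 CPM), 2.79-fold lower (2.44 to 3.204), the lowest ratio among the 27. Its paralog Slc25a18 had 2 and 0 counts. All 3 ratios lay below 1 under total-count, DESeq2 and upper-quartile scaling and after the correction for exon length and GC content.

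Other amino acid carriers went both ways. Slc25a44, which carries branched-chain amino acids, was at 48.7 and 26.0 CPM, 1.87-fold lower in the KO-labelled library (1.62 to 2.18), and the basic amino acid carrier Slc25a29 was at 7.25 and 4.503 CPM. Slc25a38 (chromosome 9, 120110374 to 120124504, plus strand) brings glycine to the matrix for the first step of haem synthesis. It had 631 counts (40.5 CPM) in the WT-labelled library and 687 counts (77.3 CPM) in the other, 1.91-fold higher in the KO-labelled library (1.71 to 2.13). Slc25a45 (chromosome 19, 5877808 to 5885878, plus strand) had 682 counts (43.7 CPM) and 940 counts (106 CPM). It was 2.42-fold higher (2.19 to 2.67), the 1 carrier of the 27 whose whole interval lay above 2-fold, and its share of the family's counts was 1.77% and 4.84%. The ornithine carrier Slc25a15, of the urea cycle, was at 7.504 and 10.1 CPM, and Slc25a20, which exchanges acylcarnitines for carnitine on the path of fatty acids to oxidation, at 17.3 and 24.9 CPM, 1.44-fold higher (1.2015 to 1.73). Among low members, Slc25a47, known from liver, had 82 and 13 counts and was 3.59-fold lower (1.99 to 7.03). It lies 162 bases from Slc25a29 on the opposite strand of chromosome 12. Slc25a2 had 2 and 0 counts and Slc25a48 had 0 in both.

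Both iron carriers were lower in the KO-labelled library, by nearly the same factor before correction for exon length and GC content. After that correction the log2 differences were -0.36 for Slc25a37 and -0.64 for Slc25a28, from -0.69 and -0.67. Slc25a37 (mitoferrin-1, chromosome 14, 69241848 to 69285112, minus strand) had 4194 counts (269 CPM) in the WT-labelled library and 1476 counts (166 CPM) in the other, 1.62-fold lower (1.53 to 1.72). Slc25a28 (mitoferrin-2) had 1437 counts (92.2 CPM) and 513 counts (57.8 CPM), 1.596-fold lower (1.44 to 1.77). Mitoferrin-1 is abundant in red cell precursors. Of 12 erythroid markers, 5 were at 0 in both libraries, among them Epor, Slc4a1, Epb42 and Hbb-bt. Of the other 7 all but Tfrc had at most 10 counts in either library, with values on both sides. Klf1 had 9 and 0 counts, Ermap 7 and 0, Gata1 4 and 0, and Hba-a2 1 and 0. Hba-a1 had 4 and 10 counts and Hbb-bs 1 and 9. Tfrc, the transferrin receptor gene that many dividing cells express, was at 167 and 60.7 CPM, 2.76-fold lower.

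In the carboxylate class, 1 member of 6 reached 5 CPM. Slc25a10 (chromosome 11, 120491840 to 120499187, plus strand), which exchanges malate or succinate for phosphate, had 477 counts (30.6 CPM) in the WT-labelled library and 552 counts (62.1 CPM) in the other. It was 2.03-fold higher in the KO-labelled library (1.79 to 2.30), an interval that reaches below 2-fold. With total counts it was under 2-fold. Slc25a11, the oxoglutarate and malate carrier that forms the other arm of the aspartate and malate shuttle, had 30 and 46 counts, a ratio of 2.69 (1.66 to 4.42). It overlaps Rnf167 on the opposite strand. Slc25a1, the citrate carrier that supplies cytosolic acetyl-CoA, had 38 and 20 counts with a ratio of 0.92 (0.51 to 1.63). Slc25a35 had 99 and 25 counts and was 2.26-fold lower (1.44 to 3.65), and overlaps Rangrf on the opposite strand. Slc25a34 had 4 and 0 counts and Slc25a21, the oxoadipate carrier, 1 and 0.

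Cofactor, nucleotide and glutathione carriers were mixed. Slc25a39 (chromosome 11, 102402985 to 102407946, minus strand), needed for glutathione in the matrix, had 1711 counts (110 CPM) in the WT-labelled library and 1525 counts (172 CPM) in the other. It was 1.56-fold higher in the KO-labelled library (1.46 to 1.68). Its paralog Slc25a40 went the other way, at 7.70 and 4.95 CPM, 1.55-fold lower (1.09 to 2.25). Of the pyrimidine nucleotide carriers, Slc25a36 was at 39.7 and 70.6 CPM, 1.78-fold higher (1.59 to 1.99), and Slc25a33 had 54 and 5 counts, 6.15-fold lower (2.48 to 19.7). Slc25a42, which carries coenzyme A, had 183 counts (11.7 CPM) and 41 counts (4.62 CPM), 2.54-fold lower (1.80 to 3.66). Slc25a16, related to it, was 1.61-fold lower (1.29 to 2.01), at 20.3 and 12.6 CPM. Slc25a51, the NAD carrier, was at 61.1 and 39.4 CPM, 1.55-fold lower (1.37 to 1.76).

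Other cofactor carriers had intervals that include 1. Slc25a17, a carrier of the peroxisome membrane, was at 41.1 and 46.5 CPM, a ratio of 1.13 that lay a little below 1 with total-count scaling. Slc25a26, which carries S-adenosylmethionine and overlaps Lrig1 on the opposite strand, was at 7.70 and 6.30 CPM, and Slc25a32, linked to folate and FAD, had 4 and 1 counts.

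Of the carriers related to uncoupling proteins, Slc25a30 was at 10.1 and 9.46 CPM, with a ratio of 0.93 (0.71 to 1.22) and a log2 difference above 0 once corrected for exon length and GC content (0.01). Slc25a14 had 90 and 33 counts, 1.55-fold lower (1.03 to 2.39). Slc25a27, known from brain, had 23 counts (1.48 CPM) in the WT-labelled library and 58 counts (6.53 CPM) in the other. It was 4.43-fold higher in the KO-labelled library (2.69 to 7.52), the highest ratio among carriers with at least 10 counts. Slc25a46, a carrier-like protein of the outer membrane that takes part in mitochondrial shape, was at 75.7 and 53.1 CPM, 1.42-fold lower (1.28 to 1.59). Slc25a53 had 36 and 5 counts, 4.10-fold lower (1.604 to 13.4), and Slc25a43 had 27 and 17 counts with a ratio of 1.11 (0.57 to 2.10), which lay below 1 under total counts and also once corrected for exon length and GC content. Slc25a54 had 0 in both.

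**Figure D3:**
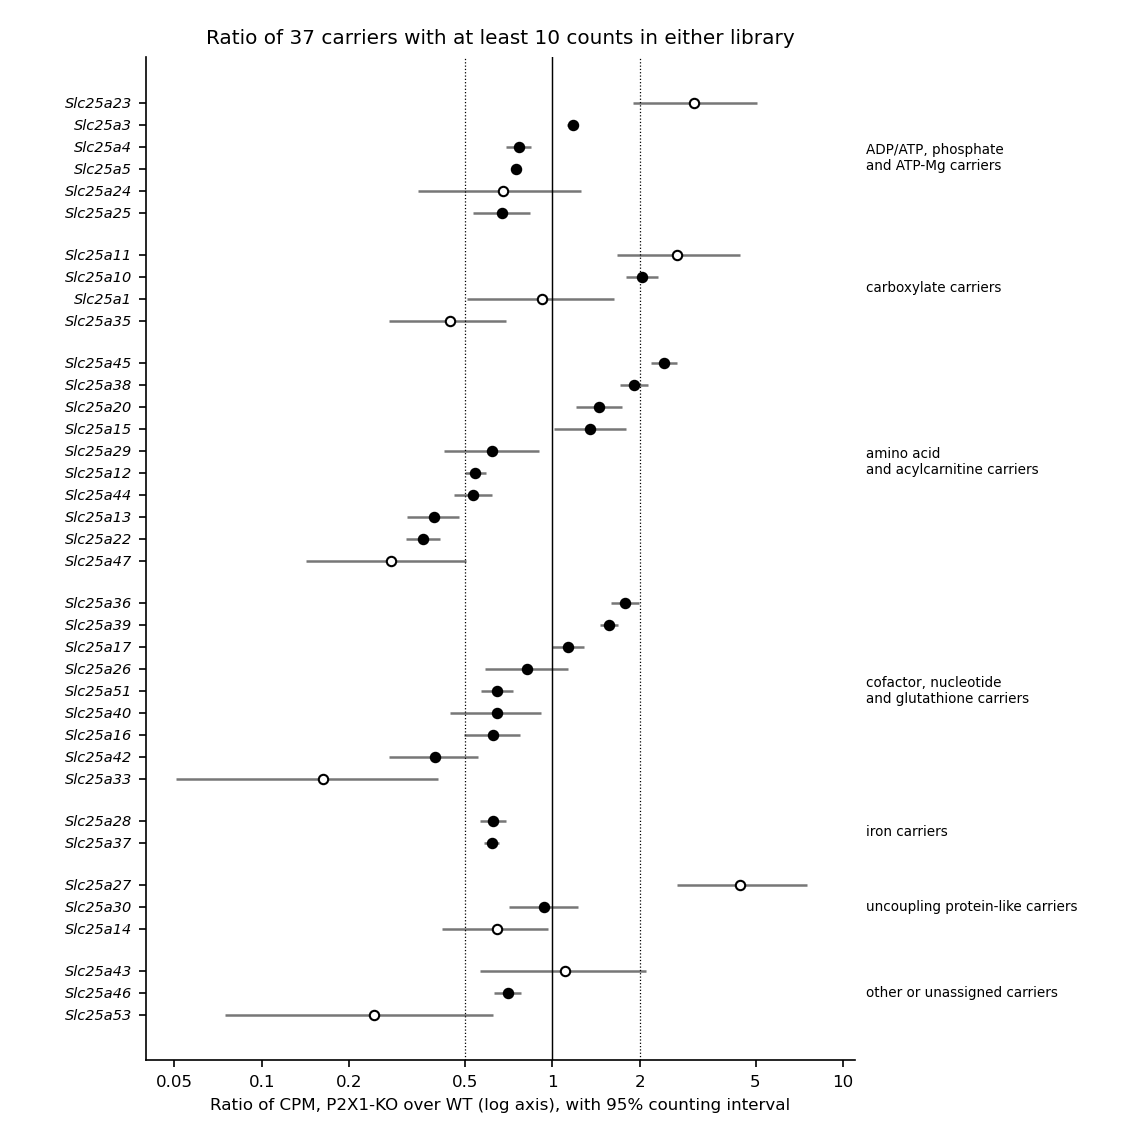
Ratio of CPM, P2X1-KO over WT (log x axis), for 37 of the 38 carriers with at least 10 counts in either library, grouped by solute class, with 95% intervals for counting error. Filled points have a mean of at least 5 CPM and open points less, and dotted lines mark 2-fold. Both iron carriers, the aspartate and glutamate carriers and Slc25a22 lie left of 1, and Slc25a45 and Slc25a10 lie at or beyond the right dotted line.

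In all, 20 carriers were under 5 CPM, of which 11 had at least 10 counts in 1 library or both. Of these 11, 3 were higher by 2-fold or more in the KO-labelled library and 4 lower by 2-fold or more, all with wide intervals. Of the 4313 genes in the same range of counts, 25.6% were higher and 36.2% lower by 2-fold or more, so these shares (27.3% and 36.4%) are near the background. The other 9 had at most 4 counts in either library. For these, a floor of 3 counts equals 0.192 CPM in the WT-labelled library and 0.338 CPM in the other, and no fold is given.

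Ratios of related carriers within 1 library do not depend on how the libraries are scaled. The 9 pairs computed were chosen after the values had been seen, and the interval of the shift between libraries included 1 for 2 of them. Per exon length, Slc25a5 over Slc25a4 was 13.1 in the WT-labelled library (12.4 to 13.9) and 12.9 in the KO-labelled library (11.8 to 14.1). The ratio of the 2 values was 0.98 (0.88 to 1.09). Slc25a37 over Slc25a28 was 1.82 (1.71 to 1.93) and 1.79 (1.62 to 1.98), with a ratio of 0.99 (0.88 to 1.11). For these ADP/ATP and iron carrier pairs no shift was detectable at this depth, with the intervals giving the range that the counts allow. The shifts are not corrected for exon length and GC content between libraries. After that correction the log2 differences were -0.66 for Slc25a5 and -0.50 for Slc25a4. They were -0.36 for Slc25a37 and -0.64 for Slc25a28, so these 2 were no longer nearly equal.

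Slc25a12 over Slc25a13 was 2.38 in the WT-labelled library (2.16 to 2.62) and 3.31 in the KO-labelled library (2.71 to 4.06), a shift of 1.39-fold (1.12 to 1.75). Slc25a39 over Slc25a40 was 43.4 and 105, a shift of 2.43-fold (1.69 to 3.54). For Slc25a36 over Slc25a33 the values were 2.25 and 24.7, a shift of 10.9-fold with an interval of 4.36 to 35.2, since it rests on 5 counts of Slc25a33. Slc25a25 over Slc25a23 went from 7.07 in the WT-labelled library to 1.54 in the other, a shift of 4.59-fold (2.67 to 7.97) towards Slc25a23. Slc25a22 over Slc25a12 was 0.652 and 0.430, a ratio of 0.659 (0.561 to 0.773), so the glutamate carrier was lower relative to aralar in the KO-labelled library. Slc25a16 over Slc25a42 was 2.16 and 3.41, a shift of 1.58-fold (1.04 to 2.43). Slc25a5 over Slc25a3 was 7.39 and 4.72, a ratio of 0.639 (0.605 to 0.675). These shifts are also without the correction for exon length and GC content, which changed pairs in both directions. With it the log2 differences were 0.69 for Slc25a39 and -0.15 for Slc25a40, from 0.64 and -0.59, so this pair lay closer together. Those of Slc25a36 and Slc25a33 were 1.19 and -2.23, from 0.82 and -1.90, so that pair lay farther apart.

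**Figure D4:**
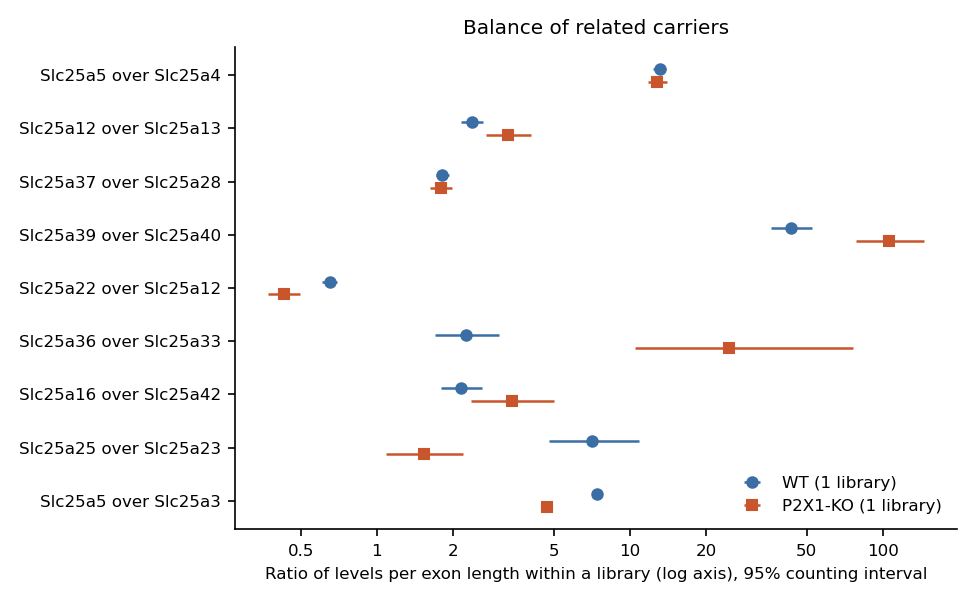
Ratio of levels per exon length within a library (log x axis) for 9 pairs of carriers, in the WT library (circles) and the P2X1-KO library (squares), with 95% intervals for counting error. The 2 symbols nearly coincide for Slc25a5 over Slc25a4 and for Slc25a37 over Slc25a28, and stand farthest apart for Slc25a36 over Slc25a33.

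Genes that work beside the carriers were taken as lists and set beside all genes, with the same level of 5 CPM. For all genes at that level, 35.9% of intervals lay above 1 and 43.7% below, 12.1% of genes were higher and 10.6% lower by 2-fold or more, and the median log2 difference was -0.08. The lists are read beside these values. Of the carriers under other symbols, 3 of 5 reached that level and all 3 were higher in the KO-labelled library. Ucp2, the uncoupling protein gene best known from immune cells, had 16391 and 13308 counts, or 1051 and 1498 CPM, a ratio of 1.43 (1.39 to 1.46). Mtch1 and Mtch2, outer membrane proteins of the family, had ratios of 1.49 (1.38 to 1.596) and 1.27 (1.16 to 1.40). Ucp1 and Ucp3 had 0 counts in both.

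The import machinery that brings carriers to the inner membrane had values on both sides. Of 15 measured genes, 0 were higher by 2-fold or more and 1 lower by 2-fold or more, with 7 intervals above 1 and 7 below, and a median log2 difference of -0.25. Tomm70a, the outer membrane receptor for carrier precursors, was at 166 and 80.0 CPM, 2.08-fold lower in the KO-labelled library (1.91 to 2.26). Timm9, a small chaperone of the intermembrane space, was 1.996-fold lower (1.67 to 2.399). Timm8b and Timm8a1, chaperones of the same kind, were 1.86-fold and 1.95-fold higher. After the length and GC correction the log2 difference was 0.06 for Timm8b, from 0.89, and 0.54 for Timm8a1, from 0.93. It was -0.62 for Tomm70a and -0.81 for Timm9.

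Haem synthesis genes and the carriers serving the pathway did not share a direction. Of 9 measured enzyme and helper genes, 8 had intervals above 1 and 1 below (median log2 difference 0.44). Alas1, the first enzyme, which uses the glycine brought by Slc25a38, was at 220 and 360 CPM, a ratio of 1.64 (1.56 to 1.72), and Urod had a ratio of 1.62. Fech, which inserts the iron, was at 157 and 71.9 CPM, 2.19-fold lower (2.004 to 2.39), beside the lower Slc25a37 and Slc25a28. Alas2, the erythroid form of the first enzyme, had 0 counts in both. Corrected for exon length and GC content, the log2 difference was -0.31 for Tmem14c, from 0.18, and -0.02 for Alad, from 0.30. For Fech it was -0.65, from -1.12, and the other measured genes of this list stayed above 0.

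Of 9 measured genes of the malate and aspartate shuttle and of citrate use, 6 had intervals below 1 and 2 above (median log2 difference -0.46). Fasn, fatty acid synthase, was at 470 and 159 CPM, 2.95-fold lower in the KO-labelled library (2.79 to 3.13), and Cs, citrate synthase, was 1.55-fold lower. The malate dehydrogenase genes Mdh1 and Mdh2 had ratios of 1.35 and 1.14. The aminotransferase genes Got1 and Got2, which work with Slc25a12 and Slc25a13, were 1.57-fold and 1.38-fold lower, and were named after their values had been seen. Of 5 carnitine shuttle genes, Crat was 2.33-fold higher (2.12 to 2.57), Cpt2 1.25-fold higher, Cpt1b 2.06-fold lower (1.54 to 2.79) and Slc22a5 1.40-fold lower.

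**Figure D5:**
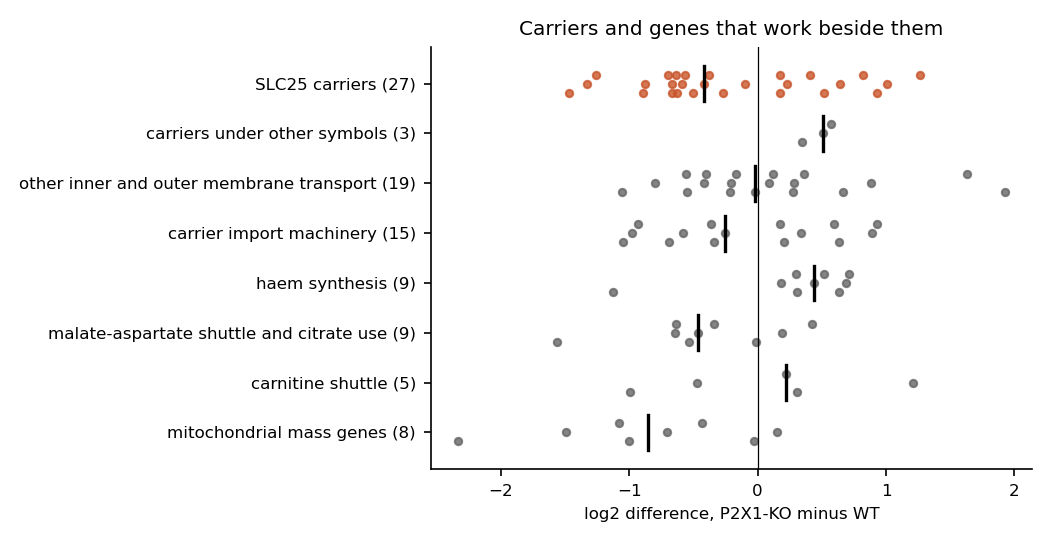
Log2 difference, P2X1-KO minus WT (x axis), of the 27 carriers and of 7 lists of genes that work beside them, each point a gene averaging 5 CPM or more and each bar the median, with the number of genes in brackets. The haem synthesis genes lie right of 0 except Fech, and the genes of mitochondrial mass and the carriers have medians left of 0 (-0.85 and -0.41).

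Exon length and base composition were the same measures for members and background. Exon length had a median of 4799 bases over the 27 carriers and 4358 over all genes, and GC content 48.6% and 49.7%. Across the 27 carriers, Pearson's r between log2 exon length and the log2 difference was -0.23, and across all genes -0.26. These points share both libraries, so the values are descriptions. The 10 higher carriers had a median exon length of 3741 bases and the 17 lower carriers 4807. After the length and GC correction the carrier median was -0.27 with all genes at 0, and 16 of 27 carriers were below 0.

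Promoter windows from 250 bases before to 50 after an annotated start were taken from RefSeq (GRCm38.p6), which held 36 of the 47 carriers, 21 of them at 5 CPM. The E-box CACGTG, which reads the same on both strands and is bound by MYC and related factors, was in at least 1 window of 3 of these 21, or 14.3%. It was in those of 12.6% of all genes at 5 CPM with a window. Counted by window and at any level, it was in 8 of 46 carrier windows, or 17.4%, and in 7.15% of all windows. The CCAAT box, searched as CCAAT on both strands, was in 11 of the 21, against 43.2% of genes. The cAMP response element TGACGTCA was in 2, Slc25a25 and Slc25a36, against 3.86%. The ETS motif CCGGAAGT, bound by GABPA among others, was in 1, Slc25a20, against 10.4%, and the core GCGCATGC of the NRF1 motif was in 0, against 6.46%. These motifs were chosen with the results known, and a match is a description of letters.

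The 3 E-box windows show that carriers with this motif included both directions of difference. Each is given 5′ to 3′ on the strand of the gene, upstream of the RefSeq start of its window, and the capitals mark the E-box. Slc25a13 was 2.56-fold lower in the KO-labelled library, while Slc25a15 and Slc25a36 had ratios of 1.35 (1.01 to 1.79) and 1.78 (1.59 to 1.99). The Slc25a15 ratio rests on 117 and 90 counts, and its interval begins close to 1. The stretches are chr6:6217243-6217348, chr8:22398299-22398404 and chr9:97111173-97111278, all on the minus strand. The first base of the E-box lies 125, 77 and 187 bases before that start. The Slc25a13 and Slc25a36 stretches lie outside the GENCODE gene, whereas that of Slc25a15 belongs to the downstream of its 2 RefSeq starts and lies in an intron of the GENCODE gene.
Slc25a13: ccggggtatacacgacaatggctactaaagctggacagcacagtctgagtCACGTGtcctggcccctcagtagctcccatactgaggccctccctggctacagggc
Slc25a15: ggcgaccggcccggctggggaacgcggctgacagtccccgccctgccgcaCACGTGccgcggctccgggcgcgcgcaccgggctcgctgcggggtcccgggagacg
Slc25a36: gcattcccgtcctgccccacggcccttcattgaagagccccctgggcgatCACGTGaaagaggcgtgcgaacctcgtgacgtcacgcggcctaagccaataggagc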

How the data were processed

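RNA sequencing measured 2 libraries of sorted leukaemia cells. The deposited table holds unnormalized counts, 1 whole number for each symbol and library. HISAT2 2.0.4 and the build mm10 are named per the submitters' processing notes. The counter, its annotation and its strand setting were not given in the sources used here, so reads of overlapping genes on opposite strands, and of near-identical copies, may not be separable.

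Effective library sizes came from TMM over the whole table in edgeR 4.0.16 (R 4.3.3). A ratio is CPM in P2X1-KO over CPM in WT, without a pseudocount, with an exact 95% interval (Clopper-Pearson) from the binomial of both counts given their sum. The interval calculation was tested on simulated counts. Ratios between 2 carriers in both libraries have exact conditional intervals. Log2 differences used a pseudocount of 0.5 CPM. The quasi-likelihood test needs replicates and was not run.

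Coordinates, joined exon lengths and GC content of the longest transcript came from GENCODE M21 on the same assembly, matched for 86.4% of genes with a count and 97.5% of those at 5 CPM. The correction subtracted the median log2 difference in 20 bins of length, then of GC. Alternatives were total-count, DESeq2 1.42.0 and upper-quartile scaling, other filters, pseudocounts and call rules. All columns were used.

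All members were accounted for. Members at 5 CPM, and low members with at least 10 counts in 1 library, were named, except 1 member that is not reported here by name and is left out of plots of single carriers. The 6 highest and 6 lowest by the interval bound nearest to no change, and the most abundant of each class, have intervals, as have others. Related lists name up to 2 genes in each direction by that bound. Members, lists and motifs were chosen with earlier results of these data known. Listed genes that the table does not hold under the symbol used (Slc25a52, Mcub, Timm29, Twnk) were not analysed here. A planned comparison of protein sequences was not made.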

Additional observations from a re-analysis of the deposited data

How the results depend on the processing

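With 1 library per group, no result could be checked by leaving out a replicate. No paired analysis was possible because each group holds 1 library. Total-count scaling gave 1 carrier higher by 2-fold or more and 5 lower in the KO-labelled library (all genes 9.67% and 15.3%), with a median log2 difference of -0.59 beside -0.26 for all genes. At a mean of at least 1 CPM, 5 of 38 were higher and 7 lower (all genes 15.5% and 14.0%), and with no filter 5 and 13 of 44 (17.5% and 31.6%). A threshold of 1.5-fold gave 5 higher and 11 lower of 27, or 18.5% and 40.7% (all genes 21.9% and 24.2%), and the whole interval lay above 2-fold for 1 (all genes 9.37%). The median was -0.27 after the exon length and GC correction, and the mean in place of the median was -0.21. The median stayed below 0 under all scalings, filters and pseudocounts run. For the other alternatives, the counts of carriers beyond 2-fold stayed within 1.5 times of 2 higher and 3 lower. Of the 38 carriers with at least 10 counts in 1 library, none beyond 2-fold changed sign. Slc25a17 and Slc25a43 were among those that changed sign with total counts, and Slc25a30 and Slc25a43 changed sign after the length and GC correction. Depth limits the 9 carriers with at most 4 counts, for which no difference was detectable.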

Other observations

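Transporters of other families in the mitochondrial membranes differed in both directions. Of 19 measured, 2 were higher by 2-fold or more in the KO-labelled library and 1 lower by 2-fold or more, with the same background of 12.1% and 10.6% (median log2 difference -0.02, and -0.08 for all genes at a mean of 5 CPM). Sfxn5, a sideroflexin gene, was at 6.61 and 26.5 CPM with a ratio of 4.005 (3.16 to 5.10). Sfxn1, the sideroflexin that carries serine into mitochondria, was at 181 and 86.9 CPM, 2.08-fold lower (1.92 to 2.25). The pyruvate carrier subunit genes stood on opposite sides: Mpc2 was at 25.7 and 80.6 CPM, a ratio of 3.14 (2.78 to 3.56), and Mpc1, named after its value was seen, at 18.5 and 12.5 CPM, a ratio of 0.677 (0.539 to 0.845). Abcb10, a transporter linked to haem synthesis, was 1.75-fold lower (1.51 to 2.04).

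Of 8 measured genes linked to mitochondrial mass, which itself was not measured, 4 were lower by 2-fold or more in the KO-labelled library and 0 higher (all genes 10.6% and 12.1%). Of these 4, Polg stood at the threshold, 2.01-fold lower (1.84 to 2.20). After the length and GC correction the log2 differences were -0.62 for Polg, -0.90 for Tfb2m, -1.18 for Gabpa and -2.30 for Ppargc1b. Their median log2 difference was -0.85. Ppargc1b, a coactivator of mitochondrial genes, had 217 and 21 counts, 5.89-fold lower (3.76 to 9.70). Gabpa, the ETS factor gene, was at 65.5 and 23.0 CPM, 2.85-fold lower (2.45 to 3.33). Nrf1, named after its value was seen, was at 70.1 and 68.9 CPM, a ratio of 0.98 (0.89 to 1.09), and Esrra had a ratio of 1.11 (1.01 to 1.22).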
